A study of Homo sapiens with 12 samples.

Results

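The breast lineage transcription factor genes described here are ESR1, PGR, GATA3, TFAP2A, TFAP2B, TFAP2C, FOXC1, SOX10, MYB and XBP1, which are 10 of 20033 protein-coding genes of GENCODE v44. Each gene was taken with its body and 20 kb on either side, termed its gene window, and every 100 bp bin of the accessibility tables inside that window was assigned to it. Runs of adjacent bins, termed regions, numbered 37 of 79177 in the DU-145 table and 32 of 46298 in the BT-549 table. The members had 488 of 709366 bins in DU-145 cells and 463 of 472994 bins in BT-549 cells. ESR1, TFAP2A, TFAP2B, FOXC1 and MYB all lie on chromosome 6, and the copy number of that chromosome in the lines was not analysed here.

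In the mammary gland, the hormone-responsive luminal lineage and the basal lineage are kept apart by transcription factors that bind open chromatin. ESR1 and PGR encode the estrogen and progesterone receptors, GATA3 directs luminal differentiation, and XBP1 and MYB are commonly expressed in estrogen receptor-positive tumors. The AP-2 factors TFAP2A, TFAP2B and TFAP2C act in epithelial and neural crest cells, whereas FOXC1 and SOX10 mark basal-like breast cancers.

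ATAC-seq, in which a transposase cuts and tags accessible DNA, was performed on DU-145 cells, a castration-resistant prostate cancer (CRPC) line, and on BT-549 cells, a triple-negative breast cancer (TNBC) line. The cells of either line expressed tet-MUC1shRNA, a hairpin against MUC1 that is switched on by doxycycline (DOX), which lowers the transmembrane MUC1-C subunit. The 4 groups, DU-145 vehicle, DU-145 DOX, BT-549 vehicle and BT-549 DOX, were treated for a week with DMSO vehicle or DOX and held 3 libraries each. The hairpin was expressed only in the DOX groups, so MUC1 silencing and any action of the drug itself cannot be told apart here, and neither line was compared with a luminal breast cell.

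Coverage summed over all bins ranged from 12370094 to 24001285 for DU-145 cells with vehicle and from 16337380 to 25232000 with DOX. For BT-549 cells it ranged from 9142900 to 13606129 with vehicle and from 2502510 to 3267024 with DOX. The BT-549 DOX libraries were therefore the shallowest, and their values have the largest counting error. The canonical starts of 8 of 8 epithelial marker genes were accessible in DU-145 cells and 1 of 8, that of ELF3, in BT-549 cells. Those of 4 of 7 mesenchymal markers were accessible in DU-145 and 6 of 7 in BT-549 cells, and those of 5 blood and endothelial markers in neither. At the start of MUC1, the DOX change was -0.17 in DU-145 (SE 0.08, adjusted p = 0.053) and 0.02 in BT-549 cells (SE 0.10, adjusted p = 0.91). A hairpin acts on RNA, so accessibility at MUC1 is no check of the silencing.

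Values are given as scaled coverage, the mean number of fragments over a bin per 10000000 of summed coverage of the library, which is per length and comparable between genes. Changes are log2 changes with their standard error (SE) from the quasi-likelihood test of edgeR, adjusted by Benjamini-Hochberg over all regions or all gene windows of a table, and a call is an adjusted p under 0.05. In bulk libraries, more cells with an open site and a site more open in each cell cannot be told apart.

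The sequences of 6 sites on which the comparisons turn are shown first, each as 300 bases of the plus strand of GRCh38 around the highest bin. ESR1 at 109.3 kb (chr6:151916901-151917200) had the largest rise with DOX in DU-145 cells, and ESR1 at 247.0 kb (chr6:152054501-152054800) had the largest fall of an ESR1 region there. ESR1 at 289.4 kb (chr6:152097101-152097400) and MYB at 31.7 kb (chr6:135213001-135213300) had the largest called falls in BT-549 cells. ESR1 at 284.5 kb (chr6:152091901-152092200) was the site most in favor of BT-549, and TFAP2A at -4.0 kb (chr6:10419101-10419400) was in favor of DU-145 cells. Distances are from the canonical start of the gene, along its strand. Capitals mark matches to the AP-1, GATA, AP-2 and FOX motifs.
ESR1 at 109.3 kb: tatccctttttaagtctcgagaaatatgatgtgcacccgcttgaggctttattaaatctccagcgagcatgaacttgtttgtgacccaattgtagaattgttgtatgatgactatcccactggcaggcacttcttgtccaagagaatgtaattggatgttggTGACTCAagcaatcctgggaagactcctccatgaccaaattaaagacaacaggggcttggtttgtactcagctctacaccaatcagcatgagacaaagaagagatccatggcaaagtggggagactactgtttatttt
ESR1 at 247.0 kb: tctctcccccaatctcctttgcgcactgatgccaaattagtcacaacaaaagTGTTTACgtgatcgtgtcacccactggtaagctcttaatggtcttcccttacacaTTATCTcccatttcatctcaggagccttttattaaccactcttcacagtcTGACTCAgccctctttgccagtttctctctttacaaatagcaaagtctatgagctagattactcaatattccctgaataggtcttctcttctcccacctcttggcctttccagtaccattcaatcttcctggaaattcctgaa
ESR1 at 289.4 kb: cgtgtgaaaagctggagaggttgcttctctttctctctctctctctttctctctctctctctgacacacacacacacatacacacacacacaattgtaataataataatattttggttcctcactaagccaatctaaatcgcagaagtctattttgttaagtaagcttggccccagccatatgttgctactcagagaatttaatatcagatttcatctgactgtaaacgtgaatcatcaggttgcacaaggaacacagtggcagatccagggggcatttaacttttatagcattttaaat
MYB at 31.7 kb: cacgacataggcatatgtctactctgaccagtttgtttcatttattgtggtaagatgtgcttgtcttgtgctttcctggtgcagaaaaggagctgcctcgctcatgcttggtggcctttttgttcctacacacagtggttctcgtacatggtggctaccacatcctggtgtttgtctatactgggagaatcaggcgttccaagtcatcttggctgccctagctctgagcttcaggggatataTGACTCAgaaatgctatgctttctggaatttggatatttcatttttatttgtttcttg
ESR1 at 284.5 kb: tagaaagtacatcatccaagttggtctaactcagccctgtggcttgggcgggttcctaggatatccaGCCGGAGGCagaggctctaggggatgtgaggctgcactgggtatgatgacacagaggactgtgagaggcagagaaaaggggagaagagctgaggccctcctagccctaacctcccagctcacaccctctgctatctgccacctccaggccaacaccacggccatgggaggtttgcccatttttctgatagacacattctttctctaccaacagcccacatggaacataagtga
TFAP2A at -4.0 kb: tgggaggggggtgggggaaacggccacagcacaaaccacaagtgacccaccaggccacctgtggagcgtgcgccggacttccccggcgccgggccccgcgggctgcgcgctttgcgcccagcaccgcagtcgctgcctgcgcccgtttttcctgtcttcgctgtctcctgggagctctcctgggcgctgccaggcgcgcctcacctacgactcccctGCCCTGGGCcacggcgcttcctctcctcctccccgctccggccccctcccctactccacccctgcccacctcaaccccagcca

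Motifs were searched on both strands of the 300 bases around the highest bin of every region. The AP-2 motif, searched as GCCNNNGGC, was present in 10 of 37 member regions of DU-145 (27.0%, against 16.0% of all 79177 regions) and in 10 of 32 of BT-549 cells (31.2%, against 21.9%). The AP-1 motif, searched as TGACTCA, was present in 9 of 37 member regions of DU-145 cells (24.3%), against 23771 of all 79177 regions. In BT-549 cells it was in 2 of 32 member regions (6.25%, against 17.2%). The shown ESR1 site at 109.3 kb and the MYB site at 31.7 kb each held 1 AP-1 match. The GATA motif, for which the letters AGATAA were used, was in 5 of 37 member regions of DU-145 cells (13.5%, against 13.5%) and 3 of 32 of BT-549 cells (9.38%, against 9.46%). The ESR1 site at 247.0 kb held 1 match each to the AP-1, GATA and FOX motifs, and no match overlapped another. Forkhead factors were represented by GTAAACA, found in 1 of 37 member regions of DU-145 cells (2.70%, against 6.20%) and in 2 of 32 of BT-549 cells (6.25%, against 3.14%). Members of the SOX family were represented by ACAATG, found in 1 of 37 (2.70%, against 13.7%) and in 2 of 32 (6.25%, against 11.3%). The ESR1 site at 289.4 kb held none of these letters in its window. The estrogen response element was in no member region and in 0.0404% and 0.0367% of all regions.

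The first question was whether DOX changed accessibility of these genes in DU-145 cells. Taken as whole windows, 8 of the 10 genes rose and none fell, where 20.7% of all 18206 windows rose and 31.3% fell. TFAP2C and XBP1 did not pass the test. The median change of the 10 windows was 0.22, against -0.06 for all windows. The gains were moderate, from 0.14 for TFAP2A to 0.66 for TFAP2B. All 8 remained called with the trimmed mean of M values (TMM) or RLE factors fitted on windows, while TFAP2B and SOX10 were not called with loess offsets (adjusted p = 0.18 and 0.079). Of all windows, 24.92%, 25.19% and 24.96% rose with TMM, RLE and loess. Leaving out 1 library lowered the number of genes called to between 5 and 6. It was 5 without DOX library 1 or 3 or without vehicle library 1 or 2. PGR and GATA3 remained called with any 1 library left out, and each of the other 6 genes lost its call at least once. These factors move window and region values in opposite directions, as TMM shifts the median of all windows from -0.06 to -0.0077 and that of all regions from 0.24 to 0.05. MYB, whose window and single region are the same 38 bins, had 0.27 with TMM as a window (adjusted p = 0.013) and 0.03 as a region (adjusted p = 0.82). TFAP2B, with the same 8 bins, had 0.71 (adjusted p = 0.0057) and 0.47 (adjusted p = 0.069). As to scaling, 39.8% of all windows called were higher with library sums and 50.7% with loess offsets.

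**Figure D1:**
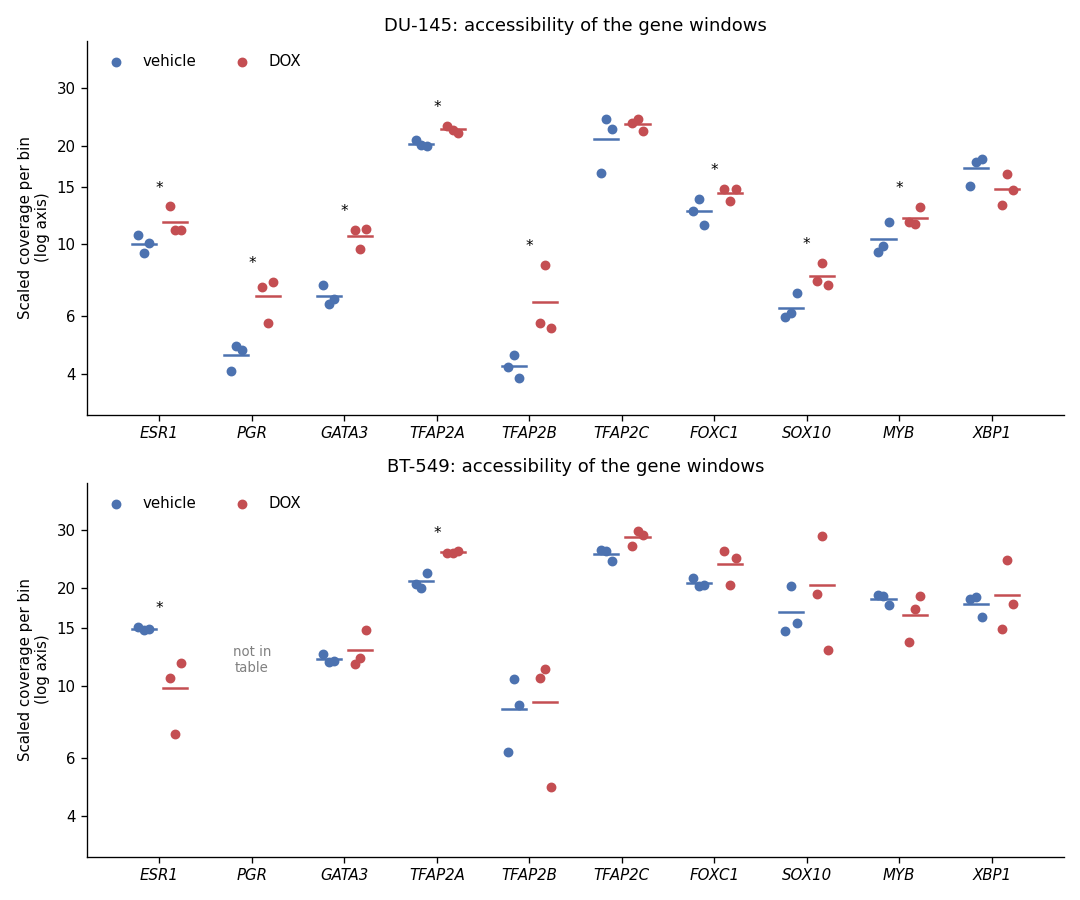
Scaled coverage per bin (log axis) of each gene window in the libraries of DU-145 (top) and BT-549 cells (bottom). Points are libraries, bars are group means and asterisks mark windows called by edgeR. In DU-145 cells the DOX libraries of ESR1, PGR, GATA3, TFAP2A, TFAP2B and SOX10 all sit above the vehicle libraries, and in BT-549 cells those of ESR1 sit below.

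GATA3 had the most significant window gain in DU-145 cells. Scaled coverage was 7.49, 6.56 and 6.76 in vehicle and 11.01, 9.66 and 11.08 in DOX libraries, a change of 0.61 (SE 0.10, adjusted p = 7.4e-06). The groups did not overlap. The gain ran through all 3 GATA3 regions of the table. The region over the canonical start and the neighboring antisense gene GATA3-AS1 (chr10:8053101-8054900) rose from 11.9 ± 0.62 to 16.5 ± 1.46 (SD, n = 3), a change of 0.48 (SE 0.11, adjusted p = 0.00039). The region in GATA3-AS1 and an intron 4.1 kb upstream (chr10:8050001-8051100) rose from 1.78 ± 0.51 to 4.21 ± 0.50, a change of 1.21 (SE 0.24, adjusted p = 6.9e-05). At the start of an upstream transcript 9.2 kb before the canonical start (chr10:8045201-8045800), values were 3.03, 1.38 and 0.577 in vehicle and 5.38, 3.33 and 5.06 in DOX libraries, a change of 1.46 (SE 0.36, adjusted p = 0.00069). The groups lay close together there, since vehicle library 1 was just under DOX library 2. A peak was called at this region in 1 of 3 vehicle and 3 of 3 DOX libraries. The start region was not called with RLE factors (0.23, adjusted p = 0.079) and the region at -9.2 kb not with loess offsets (0.80, adjusted p = 0.061).

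ESR1 had 11 regions in DU-145 cells, of which 8 rose and 1 fell. Its window is 512.9 kb long and only 1.70% of it was in the table. Window values were 10.7, 9.36 and 10.1 in vehicle and 13.07, 11.02 and 11.05 in DOX libraries, a change of 0.22 (SE 0.08, adjusted p = 0.013). The groups did not overlap, although the gap was small. The call was lost without DOX library 1 (0.14, adjusted p = 0.11) or vehicle library 2 (0.17, adjusted p = 0.11).

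The largest change of any member region in DU-145 cells was in an ESR1 intron at 109.3 kb, whose sequence is shown (region chr6:151916701-151917200). Scaled coverage was 0.385, 0.517 and 0.909 in vehicle and 8.03, 5.51 and 5.35 in DOX libraries, a change of 3.35 (SE 0.39, adjusted p = 4.4e-09). The site was near the background in all vehicle libraries and open in all DOX libraries. Peaks were called there in 0 of 3 vehicle and 3 of 3 DOX libraries, so this region entered the table through the DOX libraries alone. It remained called under TMM, RLE and loess scaling (3.16, 3.11 and 2.38).

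Further ESR1 sites rose by less. An intronic site of longer transcripts at -138.7 kb (chr6:151668701-151669200) rose from 5.32 ± 0.94 to 11.3 ± 1.53, a change of 1.08 (SE 0.22, adjusted p = 8.9e-05). An intronic site at 287.9 kb (chr6:152094801-152096300) rose from 7.30 ± 0.59 to 13.97 ± 2.38, a change of 0.93 (SE 0.14, adjusted p = 7.2e-07). Both had peaks in all 6 libraries and remained called under the other scalings. A short site at 292.6 kb (chr6:152100101-152100500) that overlaps an exon held 0.193, 2.41 and 0.922 in vehicle and 4.83, 4.67 and 4.63 in DOX libraries. Its change of 1.77 (SE 0.42, adjusted p = 0.00052) was not called with loess offsets (0.64, adjusted p = 0.21) and was 3.0 without vehicle library 2. Peaks were called at this site in 1 of 3 vehicle and 3 of 3 DOX libraries.

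The region nearest the canonical start of ESR1 (chr6:151807701-151808700) began 19 bases after it and overlapped 1 other annotated ESR1 start. It was weakly covered, at 2.22, 2.49 and 2.03 in vehicle and 5.39, 3.46 and 2.95 in DOX libraries, a change of 0.76 (SE 0.26, adjusted p = 0.012). The groups did not overlap, but the call was lost with TMM (0.57, adjusted p = 0.057), RLE (0.52, adjusted p = 0.082), loess (0.34, adjusted p = 0.27) and DESeq2 (0.53, adjusted p = 0.14). It was also lost without DOX library 1 (0.49, adjusted p = 0.14). Over the canonical start itself, a peak was called in none of the vehicle and 1 of 3 DOX libraries. In contrast, the most covered ESR1 site, the intronic region at 247.0 kb (chr6:152054101-152055200), fell from 40.0, 34.6 and 34.3 to 31.7, 25.1 and 27.5. The groups did not overlap, and the change was -0.37 (SE 0.10, adjusted p = 0.0022), and -0.57, -0.62 and -0.30 with TMM, RLE and loess.

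PGR, the progesterone receptor gene and an estrogen-responsive gene in breast cells, had 2 regions in DU-145 and none in the BT-549 table. The window rose from 4.09, 4.85 and 4.72 to 7.39, 5.72 and 7.66, a change of 0.59 (SE 0.14, adjusted p = 0.00059). The DOX libraries were all above the vehicle libraries. The internal region at 37.9 kb (chr11:101091501-101092300), which overlaps an exon, rose from 3.68 ± 0.25 to 9.33 ± 1.27, a change of 1.35 (SE 0.20, adjusted p = 8.6e-07). The region close to the start at 1.8 kb (chr11:101127201-101128900) was at 4.97 ± 0.70 and 5.79 ± 1.21. Its change of 0.21 (SE 0.17, adjusted p = 0.32) did not pass the test and changed sign with RLE factors, DESeq2 or loess offsets (-0.04 to -0.05).

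Of the other genes linked to the luminal lineage, MYB encodes a progenitor transcription factor and XBP1 a regulator of the unfolded protein response. MYB had 1 region in DU-145 cells, over its start (chr6:135180401-135184200), with 9.46, 9.88 and 11.72 in vehicle and 11.66, 11.49 and 13 in DOX libraries. The groups overlapped, as vehicle library 3 was above DOX libraries 1 and 2. The change was 0.22 for both the window (SE 0.09, adjusted p = 0.045) and the region (SE 0.10, adjusted p = 0.047), and as a region it was near 0 with TMM (0.03) and changed sign with RLE factors (-0.02). Both calls were lost without DOX library 3 or vehicle library 1 or 2 (for the window, adjusted p = 0.17 to 0.23). XBP1 also had 1 region, over its start (chr22:28799301-28801100), with 15.1, 17.9 and 18.2 in vehicle and 13.2, 16.4 and 14.7 in DOX libraries. It did not pass the test (-0.21, SE 0.11, adjusted p = 0.11) but did with TMM or RLE factors as a region (-0.40 and -0.45, adjusted p = 0.0029 and 0.00080). As a window it passed without DOX library 2 (-0.29, adjusted p = 0.038) or vehicle library 1 (-0.28, adjusted p = 0.042).

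The AP-2 family was led by TFAP2A, the most densely accessible member, with 24.5% of its window in the DU-145 table and 10 regions. Window values were 20.87, 20.11 and 19.96 in vehicle and 23.1, 22.3 and 21.9 in DOX libraries, a change of 0.14 (SE 0.05, adjusted p = 0.023) with no overlap. The call was lost without DOX library 1 or 3 or vehicle library 2 or 3 (adjusted p = 0.0506 to 0.0973). The most covered region, over an internal start at 10.4 kb (chr6:10403301-10406100), was at 50.9 ± 2.49 and 59.2 ± 3.19. It was called higher at 0.22 (SE 0.07, adjusted p = 0.0070), was near 0 with TMM (0.03) and changed sign with RLE factors (-0.03). Over the canonical start, the region at 1.9 kb (chr6:10411001-10415400) had 14.3 ± 1.56 and 14.4 ± 0.50 and did not pass the test (0.0094, SE 0.09, adjusted p = 0.94). It was called lower with RLE factors (-0.23, adjusted p = 0.024) and higher with loess offsets (0.20, adjusted p = 0.049). A weakly covered region at 5.3 kb (chr6:10409101-10410500) fell from 4.86, 5.2 and 4.93 to 3.28, 4.22 and 3.57, a change of -0.43 (SE 0.18, adjusted p = 0.047). This was -0.62, -0.67 and -0.78 with TMM, RLE and loess, but the call was lost without DOX library 1 or 3 or any 1 vehicle library (adjusted p = 0.0622 to 0.137), with the replicate block (adjusted p = 0.0546) and by the highest bin (adjusted p = 0.201). The AP-2 paralog TFAP2B had a single region 2.9 kb upstream of its start (chr6:50815601-50816400), which rose from 4.19, 4.59 and 3.88 to 5.71, 8.65 and 5.54 with no overlap (0.66, SE 0.22, adjusted p = 0.011). With TMM, RLE or loess scaling the region was not called (0.47, 0.42 and 0.27), and without DOX library 2 neither the region nor the window was (adjusted p = 0.17 and 0.14). TFAP2C, the AP-2 gene of luminal breast cells, had a single region over its start (chr20:56628301-56631000) at 21.0 ± 3.97 and 23.2 ± 1.004, where the groups overlapped (0.14, SE 0.10, adjusted p = 0.23) and the sign changed with TMM factors (-0.05), while loess offsets gave a call (0.32, adjusted p = 0.0075).

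FOXC1 and SOX10 are the members tied to the basal-like state. FOXC1 was called higher as a window (12.6 ± 1.116 to 14.3 ± 0.68, 0.18, SE 0.08, adjusted p = 0.043), its groups overlapped, and the call was lost without DOX library 1 or 3 or vehicle library 1 or 3. The start region of FOXC1 (chr6:1608801-1612300) was at 17.02 ± 1.93 and 19.8 ± 0.82, a change of 0.21 (SE 0.09, adjusted p = 0.036) that was near 0 with TMM (0.02), changed sign with RLE factors (-0.03) and was not called without DOX library 1 or 3 or vehicle library 1 or 3. The SOX10 window rose from 5.96, 6.14 and 7.06 to 7.69, 8.77 and 7.47 (0.33, SE 0.12, adjusted p = 0.024), a call that was lost without DOX library 2 or vehicle library 1 or 2. However, none of its 3 regions was at a start of SOX10 itself. All 3 overlap POLR2F, which spans the SOX10 locus, and the most covered of them also overlaps C22orf23, so the window value cannot be assigned to SOX10.

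As single regions, 20 of the 37 rose (54.1%) and 2 fell (5.41%), where 37.1% of all regions rose and 17.4% fell. The median change of the member regions, 0.24, equaled that of all regions, 0.24. Scaling by library sums places the median of all DU-145 regions at 0.24, while TMM factors place it at 0.05 and RLE factors at -0.004. Of all regions called, 68.0% were higher with library sums, 54.1% with TMM and 50.5% with loess offsets. With TMM factors, 10 member regions were higher and 3 lower, against 29.99% and 25.47% of all regions. The regions called higher under all 4 scalings were 5, namely ESR1 at -138.7, 109.3 and 287.9 kb, PGR at 37.9 kb and GATA3 at -4.1 kb. Both regions that fell were also called under all 4 scalings. The share of all regions called under all 4 scalings was not determined, so these counts have no background to be set against. Without vehicle library 2, 13 regions were higher.

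**Figure D2:**
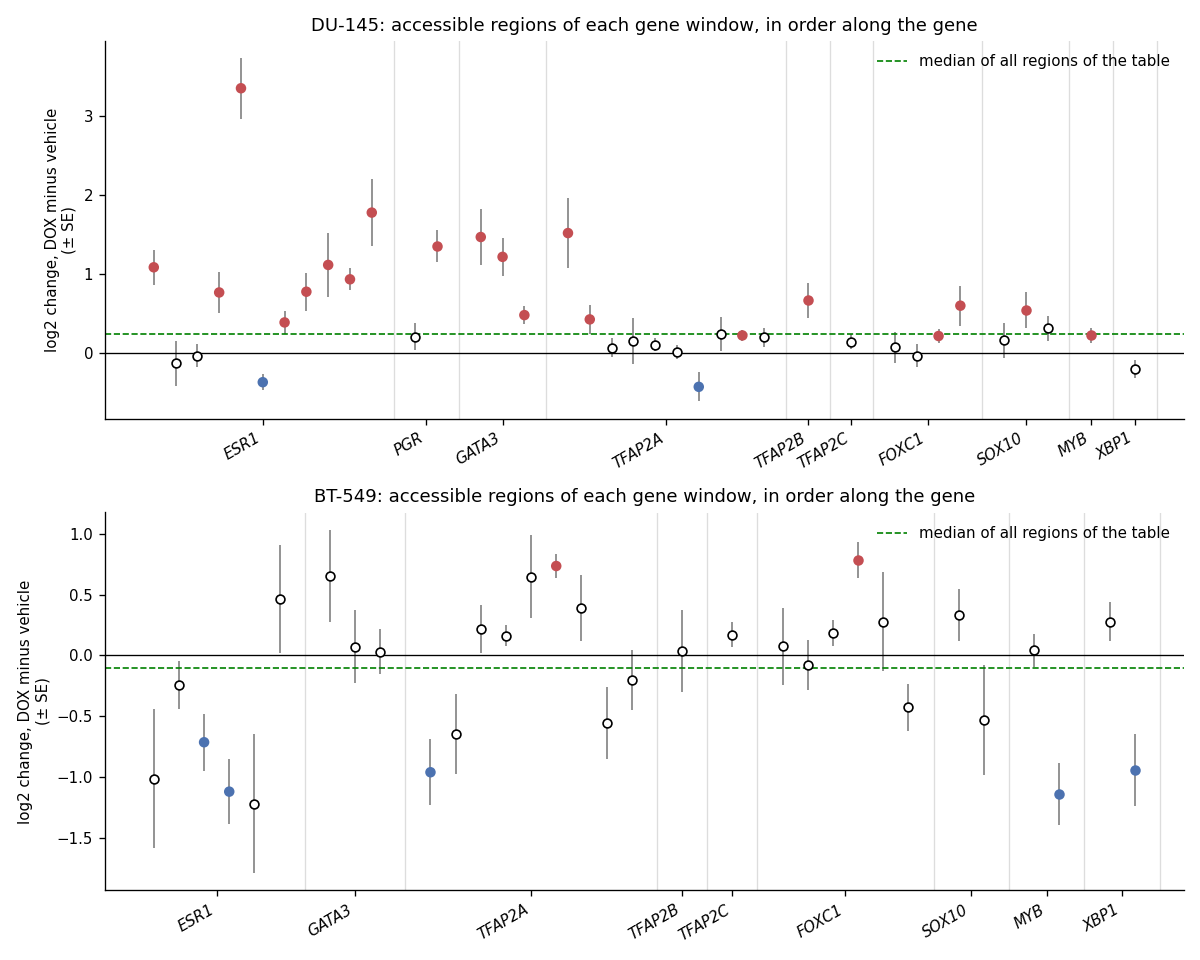
Change in accessibility with DOX (log2 scale, ± SE) of every member region in DU-145 (top) and BT-549 cells (bottom), ordered along each gene. The vertical scales differ. Filled points were called (red higher, blue lower) and the dashed line is the median of all regions of the table. The largest rise in DU-145 is the ESR1 region at 3.35, and the called regions of ESR1 in BT-549 are both below 0.

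In BT-549 cells, whose DOX libraries were the shallowest, fewer DOX changes were called at the same genes. Of all regions, 12.2% rose and 18.0% fell, against 37.1% and 17.4% in DU-145 cells. The number of calls is therefore no measure of the size of the effect between the lines. As windows, TFAP2A rose and ESR1 fell among the 9 genes tested, where 19.0% of all 16972 windows rose and 13.8% fell. As regions, 2 of 32 rose (6.25%, against 12.2% of all regions) and 5 fell (15.6%, against 18.0%). The median change of the member regions was 0.04, against -0.10 for all regions. TMM factors placed the latter at 0.0016 and moved the share of calls that were higher from 40.4% to 51.7%. With TMM factors 5 member regions rose and 5 fell, where 15.85% and 14.78% of all regions did. The added ones were the start regions of TFAP2A, TFAP2C and FOXC1 (0.27 to 0.28). By the highest bin of each region alone, ESR1 at 287.7 kb was the 1 fall still called, and the FOXC1 rise was not called (0.59, adjusted p = 0.188).

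The entry of regions into this table bears on these counts. A peak was called in at least 2 libraries of each group at 16 of the 32 member regions, and among these 2 rose and 1 fell, where 22.4% and 11.9% of all such regions did. Of the other 16 member regions 4 fell and none rose, where 23.7% and 2.52% of all such regions did. In DU-145 cells, 32 of 37 member regions had peaks in at least 2 libraries of each group, and 15 of them rose (46.9%, against 28.4% of all such regions) and 2 fell (6.25%, against 18.9%). The other 5 member regions all rose, where 61.0% of all such regions rose and 13.4% fell.

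ESR1 was the only member window that fell in BT-549 cells. Its values were 15.16, 14.82 and 14.99 in vehicle and 10.6, 7.15 and 11.8 in DOX libraries, a change of -0.60 (SE 0.14, adjusted p = 0.0012). The vehicle libraries lay close together, and all DOX libraries were below them. The window change was between -0.76 and -0.42 with 1 library left out and was called each time. However, its regions at 255.8, 289.4, 303.8 and 316.8 kb had peaks in 3 of 3 vehicle and none of the DOX libraries. These regions entered the table through the vehicle libraries alone, and leaving out a library does not change which bins were tested. The covered sites were intronic, from 255.8 to 316.8 kb. At 289.4 kb (chr6:152096401-152097700), scaled coverage fell from 12.5, 14.9 and 16.8 to 8.68, 3.38 and 8.09, a change of -1.12 (SE 0.27, adjusted p = 0.0020), with peaks in 3 of 3 vehicle and none of the DOX libraries. The neighboring region at 287.7 kb (chr6:152094801-152095900) held 21.02, 20.96 and 16.95 in vehicle and 9.54, 8.84 and 16.95 in DOX libraries (-0.71, SE 0.24, adjusted p = 0.022). These groups met at the third libraries, although a peak was called in all 6, and the call was lost with loess offsets (-0.60, adjusted p = 0.056) or DESeq2 (adjusted p = 0.0662). It was also lost without DOX library 1 or 2 or vehicle library 1 or 2 (adjusted p = 0.0847 to 0.0994), and without DOX library 3 the change was -1.11. The region at 284.5 kb, at 20.2 ± 1.94 and 17.1 ± 1.86, did not pass the test (-0.24, SE 0.20, adjusted p = 0.38). No ESR1 region of BT-549 cells was at a start of the gene.

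MYB at 31.7 kb, an intronic site absent from the DU-145 table (chr6:135212501-135213500), had the largest called fall. It fell from 17.2, 19.1 and 15.5 to 7.41, 10.4 and 6.16 with no overlap (-1.14, SE 0.26, adjusted p = 0.0013), with peaks in 3 of 3 vehicle and 1 of 3 DOX libraries. The start of MYB, at 18.9 ± 0.61 and 19.4 ± 3.68, did not pass the test (0.04, SE 0.13, adjusted p = 0.85), and with loess offsets its change was -0.013. A region downstream of XBP1, 8.0 kb from its start (chr22:28792101-28793100), fell from 11.8, 12.6 and 9.45 to 7.61, 5.24 and 5.01 (-0.94, SE 0.30, adjusted p = 0.017), a call lost without DOX library 3 or vehicle library 1 or 2 (adjusted p = 0.0744 to 0.0822). Peaks were called there in 3 of 3 vehicle and none of the DOX libraries. Its start region was at 21.2 ± 1.25 and 25.9 ± 7.86, and DOX library 2 alone reached 34.3 (0.28, SE 0.16, adjusted p = 0.21).

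TFAP2A was the member window that rose in BT-549 cells. Its values were 20.48, 20.01 and 22.22 in vehicle and 25.6, 25.6 and 25.9 in DOX libraries, a change of 0.30 (SE 0.07, adjusted p = 0.0019) with no overlap. The gain was largest at the internal start at 10.3 kb (chr6:10403501-10406100), which went from 36.9, 37.2 and 41.2 to 65.2, 60.0 and 66.4 (0.74, SE 0.10, adjusted p = 1.1e-06). An upstream region at -15.0 kb in LINC00518 (chr6:10429601-10430600) moved the other way, from 12.5, 15.2 and 18.3 to 7.55, 5.91 and 9.84 (-0.96, SE 0.27, adjusted p = 0.0076). The call was lost without vehicle library 3 (adjusted p = 0.0581). Peaks were called there in 3 of 3 vehicle and none of the DOX libraries. The canonical start region at 0.2 kb, at 22.9 ± 0.89 and 25.6 ± 0.56, did not overlap between the groups but did not pass the test (0.16, SE 0.09, adjusted p = 0.17). It passed with TMM factors (0.27, adjusted p = 0.027) and changed sign with loess offsets (-0.01).

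The other region that rose was at the 3′ end of FOXC1 (chr6:1613701-1615800), from 13.5, 14.3 and 13.4 to 25.0, 21.7 and 24.6 (0.79, SE 0.15, adjusted p = 0.00015). FOXC1 as a window, at 20.6 ± 0.64 and 23.6 ± 2.87, did not pass the test (0.20, SE 0.09, adjusted p = 0.081). GATA3, TFAP2B, TFAP2C and SOX10 had no called region or window in BT-549 cells. The GATA3 start region was at 16.9 ± 0.09 and 17.1 ± 3.86 (0.03, SE 0.19, adjusted p = 0.93), and the sign of this change turned with limma-trend (-0.0087). The single TFAP2C region, at 25.4 ± 1.05 and 28.6 ± 1.599, changed by 0.17 (SE 0.10, adjusted p = 0.21) and was called with TMM factors (0.28, adjusted p = 0.047).

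**Figure D3:**
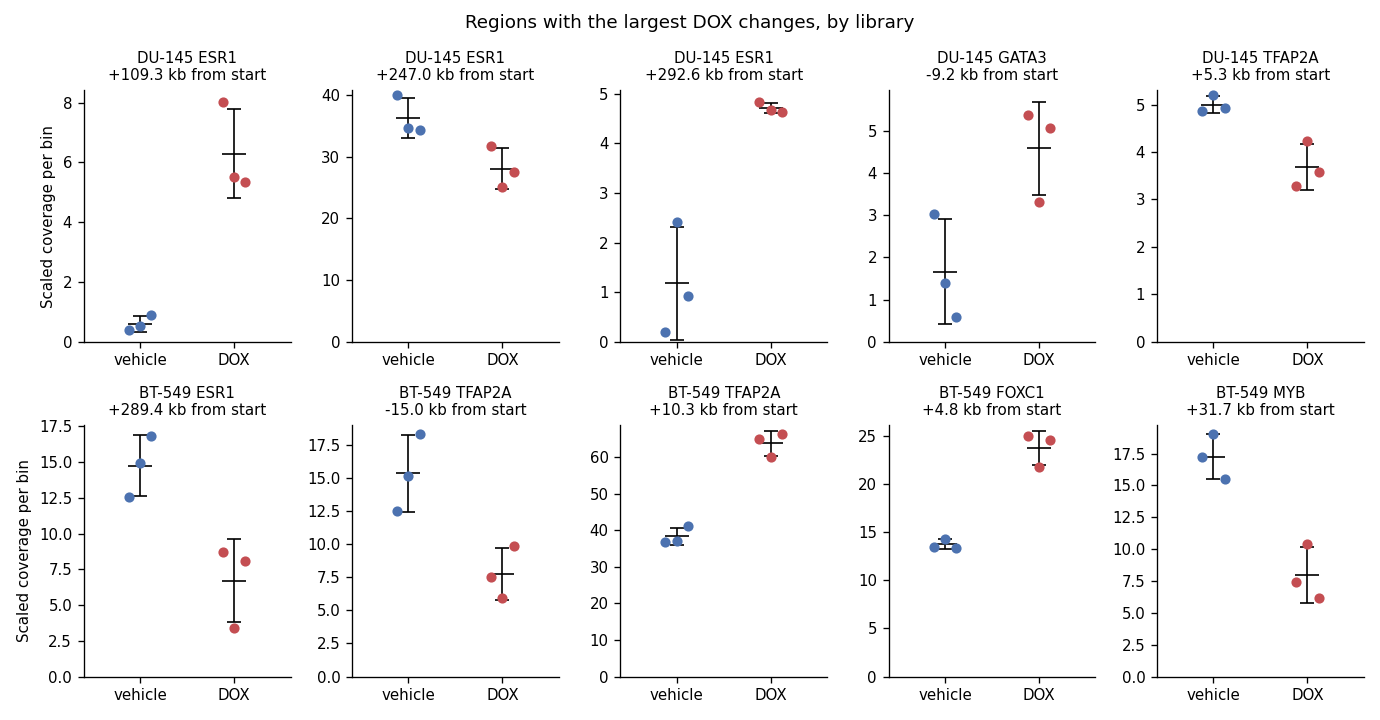
Scaled coverage per bin of 10 regions, 5 in DU-145 (top) and 5 in BT-549 cells (bottom). They are up to 3 of the largest called rises and up to 3 of the largest called falls in each line. Only regions with at least 10 fragments in their highest bin and no overlap between the groups were taken. Each panel starts at 0 and has its own scale. Points are libraries, with the mean and SD (n = 3). Separation of the vehicle and DOX libraries was a condition of being shown, and the largest log2 change is at ESR1 at 109.3 kb in DU-145 cells.

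The next question was how the lines differed without DOX. Over the bins present in both tables, in which the members had 301 bins in 21 stretches, 8 of 9 gene windows were higher in BT-549 cells and 1, TFAP2A, in DU-145 cells. Of all 16429 windows, 45.2% were lower and 33.0% higher in DU-145 than in BT-549 cells. The library sums were those of each whole table, with 709366 bins in DU-145 and 472994 in BT-549 cells. With library sizes over the shared bins, the XBP1 window was not called (-0.22, adjusted p = 0.068). The TFAP2B window was not called with loess offsets (-0.41, adjusted p = 0.086). As stretches, 15 of 21 were lower in DU-145 (71.4%, against 53.5% of all) and 4 were higher (19.0%, against 23.0%), the latter all at TFAP2A. Library sums placed the median of all stretches at -0.47 and TMM factors at -0.05, with 30.1% and 49.6% of calls higher in DU-145. With TMM, RLE or loess, 11 to 12 member stretches remained lower in DU-145 cells, where 36.62%, 36.06% and 34.58% of all stretches were lower. Copy number and accessibility cannot be told apart in these differences.

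ESR1 differed most. At 284.5 kb, an intronic site (chr6:152092001-152092300), the vehicle libraries had 47.0, 38.5 and 33.0 in BT-549 and 3.153, 1.375 and 1.997 in DU-145 cells, a difference of -4.28 (SE 0.28, adjusted p = 2.3e-16). The lines were far apart at this site, and peaks were called in 3 of 3 BT-549 and 0 of 3 DU-145 vehicle libraries. A FOXC1-flanking stretch in GMDS at 15.1 kb (chr6:1624701-1625400) came next, at 18.20, 21.95 and 15.92 in BT-549 and 3.518, 3.002 and 2.792 in DU-145 cells (-2.60, SE 0.21, adjusted p = 1.5e-13). The FOXC1 start also favored BT-549 (31.7 ± 1.91 and 17.02 ± 1.93, -0.89, SE 0.09, adjusted p = 1.8e-11). The SOX10 window was represented by the C22orf23 and POLR2F site alone, which was higher in BT-549 cells (21.2 ± 3.72 and 8.65 ± 1.49, -1.29, SE 0.16, adjusted p = 4.6e-09).

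TFAP2A was split between the lines. DU-145 cells were higher at -11.5 kb (chr6:10426201-10427000), with 20.08, 20.87 and 26.04 against 7.42, 10.2 and 12.2 (1.19, SE 0.18, adjusted p = 2.1e-07). They were also higher over upstream starts at -4.0 kb (chr6:10418501-10419700), with 37.8, 32.2 and 29.3 against 13.8, 14.7 and 15.8 (1.17, SE 0.13, adjusted p = 1.8e-10). At the most covered site, the internal start at 10.3 kb, they had 54.5 ± 2.79 against 38.4 ± 2.39 (0.51, SE 0.08, adjusted p = 2.5e-07). The canonical start, by contrast, was lower in DU-145 (15.8 ± 1.73 against 24.4 ± 1.35, -0.63, SE 0.09, adjusted p = 6.2e-08, and -0.20, adjusted p = 0.070, with DESeq2), as was the stretch at -15.0 kb in LINC00518 (-1.03, SE 0.18, adjusted p = 5.8e-06).

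GATA3 was higher in BT-549 cells at its upstream sites, most at -4.3 kb (8.70 ± 1.58 against 1.93 ± 1.01, -2.15, SE 0.27, adjusted p = 6.6e-09). At -9.1 kb the difference of -1.67 was -0.30 with loess offsets and not called (adjusted p = 0.46). The GATA3 start differed by -0.33 (SE 0.13, adjusted p = 0.019), which turned to 0.09 with TMM and 0.10 with RLE factors. The difference at the XBP1 start (-0.36, SE 0.11, adjusted p = 0.0044) likewise turned to 0.06 with TMM. The starts of MYB (-0.65, SE 0.10, adjusted p = 5.0e-07) and TFAP2C (-0.59, SE 0.10, adjusted p = 2.7e-06) and the upstream site of TFAP2B (-0.995, SE 0.22, adjusted p = 0.00015) were higher in BT-549 cells, and of these only TFAP2C was not called with TMM factors (-0.17, adjusted p = 0.13) and only TFAP2B with loess offsets (-0.31, adjusted p = 0.22). With RLE factors MYB was not called either (-0.22, adjusted p = 0.0502).

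**Figure D4:**
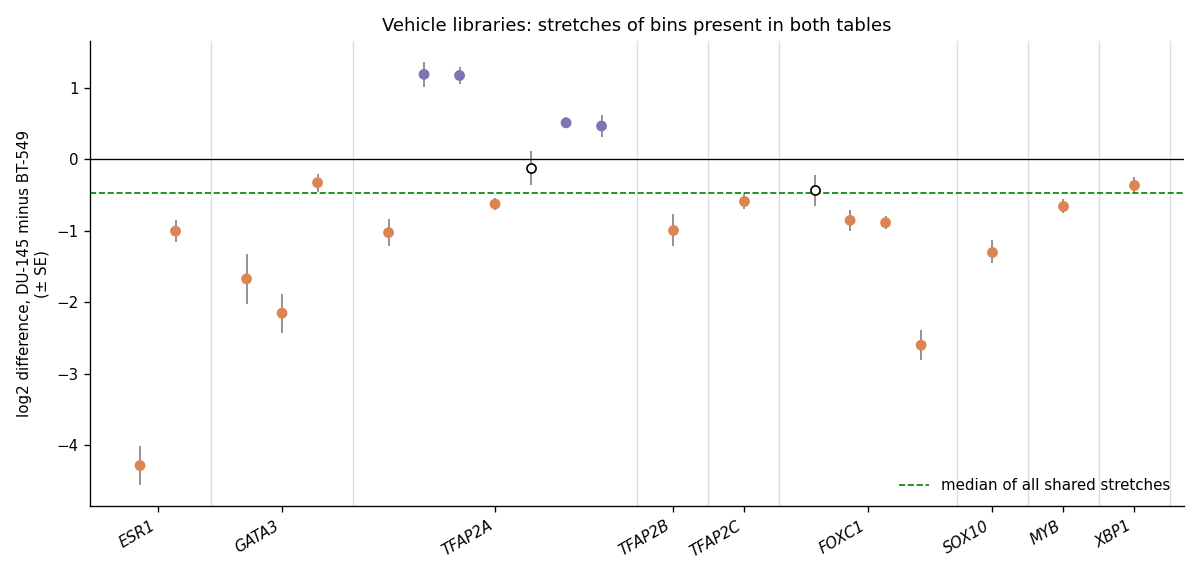
Difference between the vehicle libraries of DU-145 and BT-549 cells (log2 scale, ± SE) for the 21 stretches of bins present in both tables, ordered along each gene. Filled points were called (purple higher in DU-145, orange higher in BT-549) and the dashed line is the median of all shared stretches. All 4 stretches higher in DU-145 cells belong to TFAP2A, and ESR1 at -4.28 is the farthest from 0.

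In order of the mean scaled coverage of their windows in BT-549 vehicle libraries, the genes ran TFAP2C at 31.7, FOXC1 at 25.4, ESR1 at 23.9, TFAP2A at 23.4, XBP1 at 22.9, SOX10 at 21.2, MYB at 19.5, GATA3 at 12.6 and TFAP2B at 8.51 over the shared bins. From FOXC1 to MYB, each gene differed from the next in this order by less than the larger SD of the pair. The place of ESR1 rests on its 14 shared bins (SD 3.18), and over its 47 bins of the BT-549 table the vehicle mean was 14.99, below those of TFAP2A, FOXC1, MYB, XBP1 and SOX10 in that table. In DU-145 vehicle libraries TFAP2A led at 26.8, followed by TFAP2C at 21.0 and XBP1 at 17.9, and TFAP2B was last at 4.22. The levels of SOX10, ESR1 and GATA3, at 8.65, 8.18 and 8.08, differed by less than the SD of SOX10 (1.49) there.

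The effect of DOX was then compared between the lines by the interaction of line and DOX over all 12 libraries. The ESR1 window, which rose in DU-145 (8.18 to 14.3 over the shared bins) and fell in BT-549 cells (23.9 to 15.4), differed by 1.42 (SE 0.22, adjusted p = 3.2e-06). This value rests on 14 bins in 2 stretches, or 0.273% of the window, whereas over all ESR1 bins of each table the changes were smaller, at 0.22 (87 bins) in DU-145 and -0.60 (47 bins) in BT-549 cells. The difference was 1.627, 1.612 and 1.501 with TMM, RLE and loess, and was called with any 1 library left out. However, the ESR1 stretch at 284.5 kb had peaks in 0 of 3 DU-145 vehicle and 3 of 3 DU-145 DOX libraries. Its bins entered the DU-145 table through the DOX libraries alone, and leaving out a library does not change which bins were tested. The GATA3 window differed by 0.50 (SE 0.18, adjusted p = 0.024), with a gain from 8.08 to 12.2 in DU-145 and from 12.6 to 13.5 in BT-549 cells, the latter not called. This call was lost under 5 of the 12 libraries left out in turn (adjusted p = 0.0511 to 0.0634). TFAP2A (-0.24, SE 0.10, adjusted p = 0.040) and XBP1 (-0.50, SE 0.20, adjusted p = 0.036) had the lower DOX effect in DU-145, but neither was called with TMM, RLE or loess, and the TFAP2A value turned to 0.04 with loess. The call was also lost under 9 of the 12 libraries left out in turn for TFAP2A (adjusted p = 0.0515 to 0.104) and under 6 for XBP1 (adjusted p = 0.0619 to 0.27). Of all windows, 10.0% had the higher and 35.6% the lower effect in DU-145 cells, and with library sums the median of all windows was -0.22, against -0.01 with TMM factors. The share of calls that were higher in DU-145 cells was 22.03% with library sums and 50.8% with TMM.

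At single stretches, 5 of 21 had a higher DOX effect in DU-145 (23.8%, against 22.0% of all) and 3 a lower one (14.3%, against 17.8%). Among them were both ESR1 stretches, of which that at 287.7 kb went from 9.81 to 16.98 in DU-145 and from 19.6 to 11.8 in BT-549 cells, a difference of 1.496 (SE 0.27, adjusted p = 1.95e-05). The TFAP2A stretch at -15.0 kb differed by 1.34 (SE 0.33, adjusted p = 0.00096), with 8.03 and 10.6 in DU-145 and 16.3 and 8.33 in BT-549 cells. In BT-549 cells, peaks were called at this site in 3 of 3 vehicle and none of the DOX libraries, so it entered that table through the vehicle libraries alone. The TFAP2A internal start at 10.3 kb differed by -0.52 (SE 0.11, adjusted p = 0.00030), a value that was 0.0047 with loess offsets.

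The peaks called in each library, from which the bins were cut, were also counted. The member windows of DU-145 cells held a median of 35 peaks (31 to 38) with vehicle and 47 (47 to 51) with DOX. Those of BT-549 cells held 54 (48 to 62) with vehicle and 28 (21 to 33) with DOX. The groups did not overlap in either line, and neither did the totals of all peaks per library, given below, which moved in the same directions. ESR1 went from 7 to 9 peaks with vehicle to 12 to 14 with DOX in DU-145 cells. In BT-549 cells it went from 10 to 12 peaks with vehicle to 2 to 6 with DOX, and TFAP2A from 12 to 17 to 5 to 11. The scaled coverage of the TFAP2A window moved the other way there (0.30). The BT-549 DOX libraries, which were the shallowest, held 30450 to 39837 peaks in all, against 65204 to 93929 in BT-549 vehicle, and the DU-145 libraries held 63271 to 83605 with vehicle and 87702 to 95487 with DOX. Within the BT-549 DOX group, library 3 had the largest summed coverage and the fewest peaks, while between the BT-549 groups the one with less coverage had fewer peaks. The part of depth in the peak counts was not tested. A peak lay over the canonical start of TFAP2C, FOXC1, MYB and XBP1 in every library of both lines, and over that of TFAP2B and SOX10 in none.

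**Figure D5:**
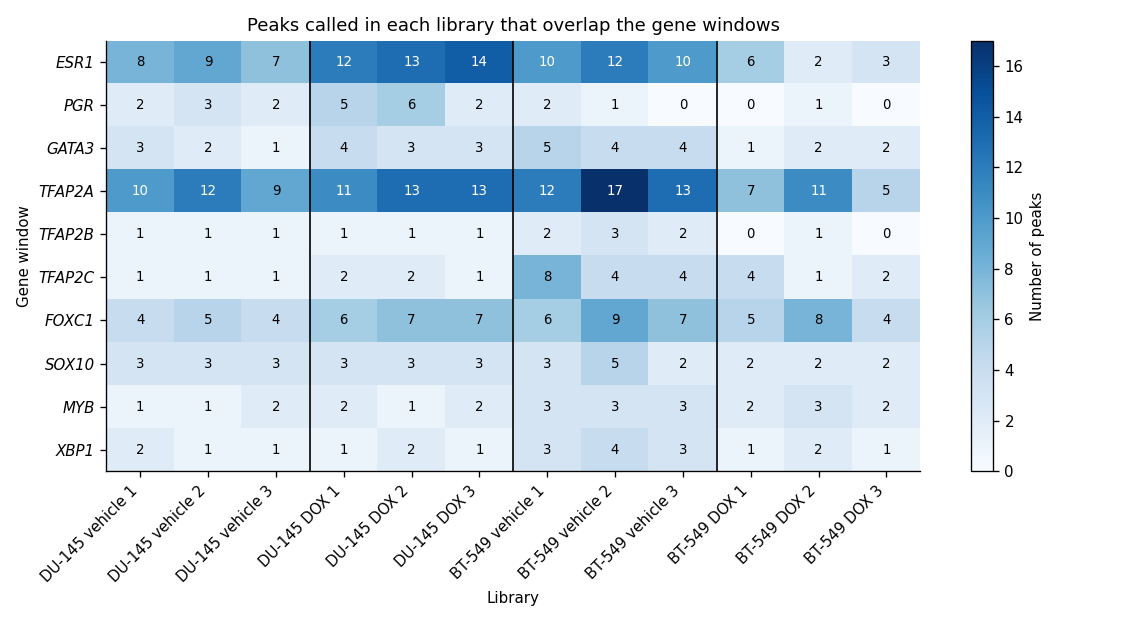
Number of peaks called in each library (columns) that overlap each gene window (rows), with darker blue for more peaks. ESR1 has 12 to 14 peaks in the DU-145 DOX libraries and 2 to 6 in the BT-549 DOX libraries, and the BT-549 DOX libraries have the fewest peaks in all.

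Genes that mark the same lineages were examined as windows from a list of 28 luminal and hormone-related genes and one of 23 basal genes. In DU-145 cells, DOX raised 6 and lowered 9 of 26 luminal genes tested (median -0.09, against -0.06 for all windows), where 20.7% of all windows rose and 31.3% fell. The balance turned with scaling, as 9 luminal genes rose and 8 fell with TMM, 9 and 7 with RLE, and 8 and 6 with loess. Of all windows, 24.92% rose and 25.48% fell with TMM, 25.19% and 25.01% with RLE, and 24.96% and 24.31% with loess. Among the luminal genes, PDZK1, a scaffold protein gene, rose from 8.33 ± 0.68 to 15.4 ± 0.43 (0.88, SE 0.08, adjusted p = 1.5e-10). SPDEF, an epithelial ETS factor gene, fell from 15.6 ± 0.11 to 9.97 ± 1.42 (-0.64, SE 0.09, adjusted p = 4.3e-07). Of 23 basal genes, 7 rose and 3 fell (median 0.13), or 10 and 2 with TMM or RLE and 9 and 4 with loess. KRT6B, a keratin gene of stratified epithelia, rose from 2.90 ± 0.59 to 14.7 ± 0.46 (2.37, SE 0.15, adjusted p = 9.8e-15), and TP63, the basal p63 gene, from 5.42 ± 0.35 to 10.8 ± 0.67 (0.99, SE 0.08, adjusted p = 1.5e-11). Among the basal genes that fell, MIA went from 64.4 ± 4.75 to 44.7 ± 5.89 (-0.52, SE 0.08, adjusted p = 7.1e-07). ROPN1 went from 15.6 ± 1.46 to 11.2 ± 1.24 (-0.47, SE 0.12, adjusted p = 0.0013).

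In BT-549 cells, 2 luminal genes rose and 7 fell of 25 tested (median -0.12, against 0.04 for all windows), and 1 basal gene rose and 2 fell of 19 (median 0.05), where 19.0% of all windows rose and 13.8% fell. ELF5, an ETS factor gene of mammary luminal progenitors, fell from 20.4 to 31.6 in vehicle to 4.92 to 10.9 in DOX libraries (-1.83, SE 0.24, adjusted p = 3.7e-07). VGLL1, a TEAD cofactor gene, fell from 23.4 to 28.2 to 2.97 to 9.23 (-1.97, SE 0.27, adjusted p = 5.5e-07). In the other direction, MLPH of the luminal list rose from 11.97 ± 0.67 to 18.4 ± 1.73 (0.62, SE 0.11, adjusted p = 5.9e-05). SOX9 of the basal list rose from 10.65 ± 0.88 to 15.8 ± 1.21 (0.58, SE 0.15, adjusted p = 0.0022). Between the vehicle libraries, 9 of 23 luminal genes were higher and 9 lower in DU-145 cells, and 5 of 19 basal genes were higher and 9 lower, where 33.0% of all windows were higher and 45.2% lower. The DOX effect was higher in DU-145 at 5 and lower at 4 of 23 luminal genes, and higher at 5 and lower at none of 19 basal genes, led by VGLL1 (2.01, SE 0.32, adjusted p = 3.2e-06). Of all windows, 10.0% were higher and 35.6% lower in that comparison. With TMM factors its luminal counts were 8 and 2, where 17.05% of all windows were higher and 16.54% lower.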

How the data were processed

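ATAC-seq libraries of DU-145 and BT-549 cells, 3 per group, were grouped by their labels. The members and gene lists were chosen with earlier results of these data known.

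Per the labels and methods, the authors used bwa-mem for alignment to GRCh38, Picard for duplicate removal and then called peaks in each replicate with MACS2 2.2.7.1 (q 0.05; MACS3 is also named). Peaks of a line were merged, kept if found in at least 3 replicates and cut into 100 bp bins. The authors deposited 1 table per line with the mean fragment coverage of each bin, used here as an estimated count that is not depth-normalized (4.22% and 6.86% of values were whole). The deposited peak files hold fold enrichment and a −log10 q-value. Because bins come from peaks, a region open in 1 group enters the table through that group.

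Bins were summed per region or gene window (GENCODE v44), rounded, and features with a total of at least 10 were tested with the edgeR 4.0.16 quasi-likelihood test (R 4.3.3), using library sums as library sizes and Benjamini-Hochberg adjustment over all features. The lines and the interaction were fitted on bins of both tables, with the sums of each whole table as library sizes. Per the study's methods, the 3 replicates of each group were biologically independent. Alternatives were TMM and RLE factors, loess offsets, DESeq2 1.42.0 (the authors' tool), limma-trend 3.58.1 on log2(CPM + 1), other filters, a replicate block, the highest bin, a 5 kb flank, shared-bin library sizes and leaving out each library. Regions named were up to 3 rises and 3 falls per comparison, taken by size among called regions with no overlap and at least 10 fragments in the highest bin, and the start regions. Further called regions were described after their values were seen. The fits were tested on simulated data. Peaks were counted if they overlapped a window. Motifs were searched in 300 bases around each highest bin.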

Additional observations from a re-analysis of the deposited data

Results flagged for a closer look

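The DOX effect differed between DU-145 and BT-549 cells, by the interaction term of edgeR's quasi-likelihood test, at 12 results. Of 21 stretches, 5 were higher and 3 lower in DU-145 cells, against 22.0% and 17.8% of all stretches. Of 9 windows, 2 were higher and 2 lower, against 10.0% and 35.6% of all windows. The results are not separate, as the XBP1 window and stretch are the same 17 bins and the ESR1 window is its listed stretches together. Values are the log2 effect in DU-145 minus that in BT-549 cells. For windows, the difference was 1.42 for ESR1 (adjusted p = 3.18e-06), 0.50 for GATA3 (adjusted p = 0.024), -0.24 for TFAP2A (adjusted p = 0.040) and -0.50 for XBP1 (adjusted p = 0.036). At ESR1 it was 1.59 at 284.5 kb (adjusted p = 0.0042) and 1.496 at 287.7 kb (adjusted p = 1.95e-05). GATA3 at -4.3 kb differed by 1.04 (adjusted p = 0.047), and FOXC1 at 15.1 kb by 1.29 (adjusted p = 0.0039). TFAP2A differed by 1.34 at -15.0 kb (adjusted p = 0.00096), by -1.05 at 4.9 kb (adjusted p = 0.031) and by -0.52 at 10.3 kb (adjusted p = 0.00030). XBP1 at 0.4 kb differed by -0.50 (adjusted p = 0.043). Of these sites, ESR1 at 284.5 kb had peaks in DU-145 cells only in the DOX libraries. TFAP2A at -15.0 kb had peaks in BT-549 cells only in the vehicle libraries. With loess offsets the differences at ESR1 at 284.5 kb, GATA3 at -4.3 kb, TFAP2A at 10.3 kb, FOXC1 at 15.1 kb and XBP1 at 0.4 kb were not called. GATA3 at -4.3 kb was also not called with TMM (adjusted p = 0.0554), RLE (adjusted p = 0.0758), DESeq2 or limma-trend, nor under 8 of the 12 libraries left out in turn. XBP1 at 0.4 kb lost its call under 8 of the 12, and with limma-trend or shared-bin library sizes. TFAP2A at 4.9 kb lost it under 5 of the 12, with shared-bin sizes (adjusted p = 0.0764), with the replicate block (adjusted p = 0.0556) and by the highest bin (adjusted p = 0.49). The windows of GATA3, TFAP2A and XBP1 lost theirs under 5, 9 and 6 of the 12, and those of TFAP2A and XBP1 with TMM, RLE or loess. The BT-549 DOX libraries were the shallowest (2502510 to 3267024 in summed coverage), and the part of depth was not tested.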

How the results depend on the processing

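Counts of called members changed with scaling and with use of the highest bin, and the cause was not tested. In DU-145 cells the 20 regions called higher were 10 with TMM, 8 with RLE, 12 with loess, 8 with DESeq2 and 9 by the highest bin, and the 2 called lower were 4 with RLE or DESeq2 and 1 with the replicate block. Of all regions, 29.99%, 28.41%, 24.83% and 26.02% were higher with TMM, RLE, loess and DESeq2, and 27.73% and 25.99% were lower with RLE and DESeq2. In BT-549 cells the 2 regions called higher were 5 with TMM or RLE and 4 with DESeq2, and the 5 called lower were 1 by the highest bin and, in an alternative chosen after seeing the data, 1 among regions with a peak in at least 2 libraries of each group. Of all regions there, 15.85%, 15.97% and 14.7% were higher with TMM, RLE and DESeq2. The 1 window called higher there was 2 with a 5 kb flank or the replicate block. Between the lines, the 15 stretches lower in DU-145 were 9 with DESeq2, where 32.87% of all stretches were lower. For the interaction, the 3 lower stretches were 1 with loess or shared-bin library sizes, and the 2 lower windows were 0 with TMM, RLE, loess, DESeq2 or shared-bin sizes and 1 with limma-trend. With loess, 13.18% of all stretches were lower. Of all windows, 16.54%, 17.67%, 14.56%, 18.95% and 33.46% were lower with TMM, RLE, loess, DESeq2 and limma-trend. Replicate numbers did not pair the libraries (same-number correlations -0.03 to 0.06), so the replicate block is given only as an alternative.

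With 1 library left out, the DU-145 counts ranged from 13 to 18 regions higher, 1 to 3 lower, 5 to 6 windows higher and 0 to 1 lower. In BT-549 they were 2 to 4 regions higher (4 without DOX library 2), 3 to 5 lower (3 without vehicle library 1 or 2), 1 to 2 windows higher (2 without DOX library 2) and 1 lower. Between the lines they were 4 stretches higher, 14 to 16 lower, 1 window higher and 8 lower. For the interaction they were 4 to 5 stretches higher, 1 to 3 lower, 1 to 2 windows higher and 0 to 1 lower.

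Signs turned at the following small changes. In DU-145 cells, PGR at 1.8 kb gave -0.038 (DESeq2), -0.041 (RLE) and -0.051 (loess), TFAP2A at 10.4 kb gave -0.027 (DESeq2, RLE) and -0.071 (highest bin), and TFAP2C at 0.3 kb gave -0.10 (DESeq2, RLE), -0.052 (TMM) and -0.13 (highest bin). There, FOXC1 at 0.6 kb gave -0.034 and MYB at 1.0 kb -0.023 with DESeq2 or RLE. In BT-549 cells, the TFAP2B window gave -0.0012 (RLE) and -0.0079 (TMM), TFAP2C at 0.9 kb -0.27 (highest bin), GATA3 at -0.6 kb -0.0087 (limma-trend) and MYB at 0.5 kb -0.013 (loess). Between the lines, GATA3 at -0.6 kb gave 0.10 (DESeq2, RLE) and 0.089 (TMM), and XBP1 at 0.4 kb gave 0.075 (DESeq2, RLE) and 0.061 (TMM). For the interaction, TFAP2C at 0.3 kb gave -0.084 (DESeq2, RLE) and -0.011 (TMM), FOXC1 at 0.6 kb -0.081 (DESeq2), -0.082 (RLE), -0.0074 (TMM) and -0.22 (highest bin), and MYB at 0.5 kb -0.44 (highest bin). The SOX10 window gave 0.14 (DESeq2, shared-bin sizes), 0.15 (RLE) and 0.16 (TMM), the GREB1 window 0.041 (5 kb flank), TFAP2A at 10.3 kb 0.0047 and its window 0.038 (loess).

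With 1 library left out, signs turned within these ranges. In DU-145 cells, TFAP2C ranged from -0.0040 to 0.26 as a region and -0.0047 to 0.26 as a window. In BT-549 cells, the start regions of GATA3 and MYB ranged from -0.17 to 0.17 and -0.11 to 0.17, and the windows of GATA3 from -0.015 to 0.17, TFAP2B from -0.16 to 0.36, SOX10 from -0.096 to 0.51 and XBP1 from -0.11 to 0.23. For the interaction, TFAP2C ranged from -0.12 to 0.14 as region and window, FOXC1 from -0.090 to 0.12 and -0.023 to 0.19, MYB from -0.0039 to 0.29 and -0.0040 to 0.29, and the SOX10 window from -0.31 to 0.29.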
